A study of Rattus norvegicus with 24 samples.

Results

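The 8 genes described here encode proteins of the presynaptic vesicle and of the machinery that fuses it with the plasma membrane, and they were chosen by name: Syn1, Syn2, Syt1, Snap25, Vamp2, Stx1a, Sv2a and Slc17a7. Each name matched 1 identifier in all 24 libraries, so 8 of the 32883 reference genes were studied and none was lost to the filter on low values. The libraries come from frontal cortex of adult male Sprague-Dawley rats, sampled 24 h after inhalation of an aerosol of tungsten particles. The Control group breathed 0 mg/m3 (8 rats, libraries 49 to 56), the Low group 5 mg/m3 (8 rats, libraries 57 to 64) and the High group 80 mg/m3 (8 rats, libraries 65 to 72). The titles of all 24 samples carry the word "Repeat", which the labels do not explain. Libraries are named below by group and number, as Control 49 or High 67. The comparisons ask whether transcript levels of these genes differed between exposed and control rats and between both doses, and each group takes part in 2 of the 3 comparisons, so these are not independent of each other.

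Neurons release transmitter when a vesicle docked at the active zone fuses with the plasma membrane. Fusion is driven by the SNARE complex, in which synaptobrevin-2 on the vesicle (Vamp2) zips together with syntaxin-1A (Stx1a) and SNAP-25 (Snap25) on the plasma membrane, and synaptotagmin-1 (Syt1) on the vesicle senses the calcium that triggers it. Synapsins (Syn1, Syn2) tether vesicles in the reserve pool, SV2A (Sv2a) is a vesicle glycoprotein known as the binding site of the antiepileptic drug levetiracetam, and VGLUT1 (Slc17a7) loads glutamate into the vesicles of most excitatory neurons of the cortex. Most of these proteins work in nearly all kinds of neuron, while Slc17a7 marks glutamatergic ones.

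The sequences shown first are the 250 bases before the annotated start of 4 of the genes, since these are neuron-expressed genes whose start regions are known to be rich in G and C. Likeness between the regions was not measured. They come from RefSeq on build GRCr8, in which 7 of the 8 genes have an entry, all but Snap25, and are written 5′ to 3′ in the direction of transcription. Capitals mark GC boxes (GGGCGG, read on either strand), the cAMP response element (TGACGTCA) and its shorter core (TGACG, read on either strand, which lies within the full element). They lie at chrX:3725495-3725744 on the plus strand (Syn1), chr7:46244214-46244463 on the minus strand (Syt1), chr10:54292539-54292788 on the plus strand (Vamp2) and chr1:104785955-104786204 on the plus strand (Slc17a7).
Syn1: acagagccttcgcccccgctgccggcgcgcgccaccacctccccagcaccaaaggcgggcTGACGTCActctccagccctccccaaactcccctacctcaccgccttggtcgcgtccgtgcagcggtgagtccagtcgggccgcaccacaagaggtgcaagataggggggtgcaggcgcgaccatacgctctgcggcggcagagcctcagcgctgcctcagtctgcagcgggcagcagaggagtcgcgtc
Syt1: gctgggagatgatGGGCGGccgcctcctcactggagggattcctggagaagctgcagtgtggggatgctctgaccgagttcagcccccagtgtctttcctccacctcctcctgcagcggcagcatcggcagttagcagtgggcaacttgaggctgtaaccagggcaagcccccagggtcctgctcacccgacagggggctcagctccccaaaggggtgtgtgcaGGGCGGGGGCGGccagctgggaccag
Vamp2: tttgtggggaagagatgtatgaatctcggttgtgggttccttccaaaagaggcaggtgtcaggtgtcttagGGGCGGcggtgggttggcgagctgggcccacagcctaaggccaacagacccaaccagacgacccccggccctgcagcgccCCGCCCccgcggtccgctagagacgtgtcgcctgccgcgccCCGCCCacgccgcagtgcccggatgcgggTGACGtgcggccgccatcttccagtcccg
Slc17a7: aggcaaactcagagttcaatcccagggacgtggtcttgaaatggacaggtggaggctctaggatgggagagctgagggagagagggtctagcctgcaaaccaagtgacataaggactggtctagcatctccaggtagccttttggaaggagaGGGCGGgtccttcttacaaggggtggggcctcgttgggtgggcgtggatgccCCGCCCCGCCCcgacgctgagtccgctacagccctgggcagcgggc
GC boxes were found in 5 of the 7 regions (Slc17a7, Stx1a, Syn2, Syt1 and Vamp2) and in 30.5% of 33469 upstream regions of the same length. The full cAMP response element was found for Syn1, as in 1.59% of all regions, and the core for Syn1 and Vamp2, as in 18.2%. The 7 regions held between 58.0% (Sv2a) and 69.6% (Syn1) G and C. These are matches of letters and carry no statement about which factors bind there.

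Coverage, the mean read depth per base of a gene, was divided by its sum over reference genes and multiplied by 1000000, and is called scaled coverage. That sum, in units of 1000000, was 1.67 to 2.82 for Control rats, 1.64 to 3.07 for Low rats and 1.77 to 2.67 for High rats, and mitochondrial genes took 21.8% to 33.8% of it. The tables give no read counts, so the number of reads behind a value is not known. Some features of the tables run with the groups. Besides reference genes, the Control tables held 46334 to 159573 loci each, assembled from that rat's own reads, and the High tables held 50235 to 64010, while the Low tables held 0, so the Low exposure and the kind of table cannot be told apart in any comparison with Low. Control 56 and Low 57 to Low 62 also carried scaled coverage of 5449 to 8102 at mitochondrial tRNA genes of the minus strand, against 84.9 to 155 in the other 17 libraries. Defining neuronal markers were present in all libraries: the 6 pan-neuronal markers summed to 1496 to 2160 and the 6 markers of cortical excitatory neurons to 1012 to 3871. High 67 or Control 49 held the lowest of the 24 values for each of the 8 genes, so estimates that either of them moves most are given without it as well. In whole tissue, fewer neurons and less of an RNA per neuron cannot be told apart.

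No member of the machinery passed the threshold in any of the 3 comparisons (0 of 8 in each, limma, adjusted p under 0.05 over 15644 genes). Of all genes tested, 6.11% passed for Low against Control, 0% for High against Control and 11.7% for Low against High. Groups overlapped for all 8 genes in all 3 comparisons, where 1.53%, 0.00639% and 2.26% of all genes, in the same order, did not overlap. The point estimates nevertheless lay mostly on one side: for Low against Control 7 of 8 were above 0 and Slc17a7 below, where 66.5% of all genes were above 0. The median log2 fold change was 0.18 over the 8 genes and 0.06 over all genes. Between High and Control 0 of 8 were above 0, against 36% of all genes, with medians of -0.09 and -0.03. That one-sided count rests on High 67, without which 5 of 8 (Syn1, Syn2, Vamp2, Stx1a and Sv2a) were above 0 and the median of the 8 was 0.0092. Of all genes 35.6% were then above 0, with a median of -0.029. The signs of that comparison also depend on the scaling: 7 of the 8 (all but Slc17a7) were above 0 with unscaled coverage, and Syn2, Vamp2 and Sv2a with median-of-ratios scaling or with mitochondrial genes left out of the sum. Under these 3 settings, in the same order, 11.9%, 48.3% and 54.1% of all genes were below 0, so the unscaled count goes with a shift of all genes. Between Low and High 7 of 8 were above 0, against 69.9% of all genes, with medians of 0.27 and 0.09. Vamp2 and Sv2a turned below 0 with unscaled coverage, where 77.9% of all genes were below 0. At an unadjusted p under 0.05, 2 of the 8 (Syt1 and Vamp2) stood out in Low against Control, 0 in High against Control and 5 in Low against High, where 18.4%, 2.11% and 29.1% of all genes did. The summed pan-neuronal markers lay in the same order as most of the 8 genes, with medians of 1793 (Control), 1901 (Low) and 1695 (High) and overlapping ranges, and those of cortical excitatory neurons had medians of 2881, 3226 and 2810. Their part in the estimates was not tested.

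**Figure D1:**
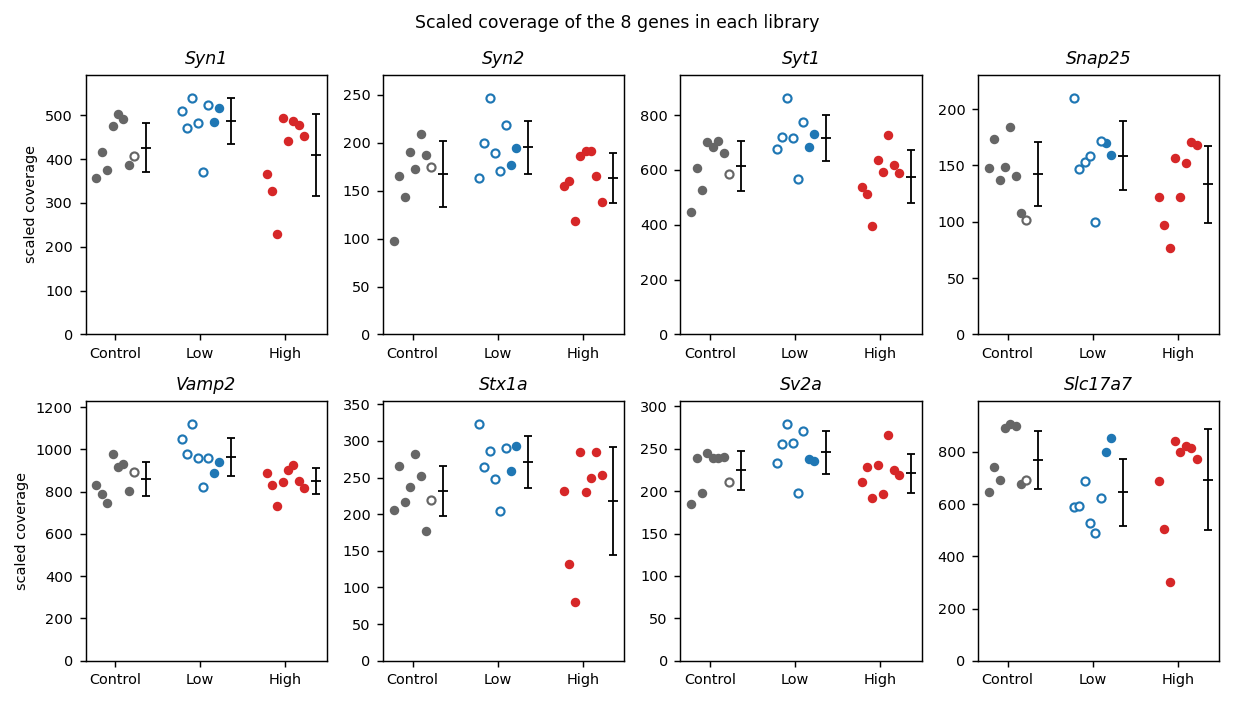
Scaled coverage (linear axis from 0) of each gene in every library, 1 point per rat, by group; bars give mean ± SD (n = 8), and open points mark Control 56 and Low 57 to Low 62. The groups overlap for every gene, the lowest High point of all 8 genes is High 67, and for Slc17a7 the 6 open Low points (489 to 689) lie below the 2 filled ones.

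Syn1, the most abundant synapsin here, lies at chrX:1321315-1379198 on the plus strand of the tables' coordinates (ENSRNOG00000010365). Its scaled coverage ran from 356 through a median of 412 to 502 in Control, from 370 through 497 to 539 in Low and from 229 through 446 to 494 in High. Low libraries were high, with 7 of 8 above the Control median, but the lowest of them lay near the bottom of the Control range. The Low-to-Control difference was 0.19 on the log2 scale (SE 0.127, adjusted p = 0.434), High against Control gave -0.09 (adjusted p = 0.999) and Low against High 0.28 (adjusted p = 0.141). Without High 67 the High-to-Control estimate of Syn1 became 0.02, and without High 66 -0.049. The gene holds the opposite-strand gene Timp1, an inhibitor of matrix metalloproteases, whose scaled coverage was 2.74 to 11.2.

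Syn2 (chr4:147037179-147195096, plus strand, ENSRNOG00000008157), the second synapsin, was measured at 97.4, 174 and 209 (lowest, median, highest) in Control, 164, 192 and 247 in Low and 118, 163 and 191 in High. Control 49 was the lowest of all 24, and all 8 Low libraries were above the High median. The log2 difference was 0.24 for Low against Control (SE 0.127, adjusted p = 0.321), -0.02 for High against Control (adjusted p = 0.999) and 0.26 for Low against High (adjusted p = 0.171). Without Control 49 the Low-to-Control estimate of Syn2 was 0.13 and the High-to-Control estimate -0.13, and without High 67 the latter was 0.040. The low value of Control 49 belongs to the coverage column: relative to the median gene, FPKM per unit of coverage for Syn2 was 1.55 in Control 49, against 1 in the other Control libraries, and its FPKM, divided by its sum and multiplied by 1000000, was 143, inside the range of the other Control rats (137 to 198). Syn1 stood 2.52 times above Syn2 in Control (median of within-library ratios, range 2.06 to 3.66), 2.47 times in Low (2.17 to 3.11) and 2.46 times in High (1.94 to 3.27), so the balance of both synapsins overlapped between the groups. The third synapsin, Syn3, was lower, with a median Syn1-to-Syn3 ratio of 36.8 (Control), 37.7 (Low) and 41.4 (High).

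Syt1, the calcium sensor of fast release, has the longest span of the 8 (554.739 kb, chr7:50084060-50638798, minus strand, ENSRNOG00000006426). Scaled coverage was 447, 634 and 705 (lowest, median, highest) in Control, 566, 719 and 862 in Low and 396, 591 and 725 in High. Low was higher than the other groups in most rats, with 7 of 8 libraries above the median of each, and the lowest Low library still lay inside both ranges. Of the 8 genes Syt1 had the smallest adjusted p, 0.0511 for a difference of 0.32 between Low and High (SE 0.108, 95% confidence interval 0.10 to 0.55). It passed the threshold in 5 of 24 fits with 1 rat left out, those without Control 49, Low 57, Low 61, High 68 or High 70. Against Control the difference was 0.23 in Low (SE 0.108, adjusted p = 0.263) and -0.10 in High (adjusted p = 0.999), which became -0.024 without High 67 and -0.16 without Control 49. With 1 rat left out the Low-to-Control estimate of Syt1 ran from 0.16 to 0.27. Its paralog Syt2 was rare here, with Syt1 at 37.3 times Syt2 in Control, 35.9 in Low and 31.5 in High (medians).

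Vamp2 (chr10:55675575-55679450, plus strand, ENSRNOG00000006989), the vesicle SNARE, has the shortest span (3.876 kb) and varied least between rats. It was measured at 746, 861 and 976 in Control, 822, 960 and 1117 in Low and 731, 846 and 926 in High (lowest, median, highest), a coefficient of variation of 7.16% to 9.35% within groups. In Low 7 of 8 libraries were above the Control median. The log2 difference was 0.16 for Low against Control (SE 0.0653, 95% confidence interval 0.03 to 0.30, adjusted p = 0.165), -0.02 for High against Control (adjusted p = 0.999) and 0.18 for Low against High (SE 0.0653, adjusted p = 0.0700). It passed for Low against High in 1 of 24 fits with a rat left out, that without Low 61, at a difference of 0.21. When mitochondrial genes were left out of the scaling sum, Vamp2 passed for Low against Control (adjusted p = 0.0296) and, with Syt1, for Low against High. With that scaling 1688 and 2621 of all 15644 genes passed in these comparisons. Its paralog Vamp1 stood lower in each group, with a median Vamp2-to-Vamp1 ratio of 4.24 (Control), 4.23 (Low) and 4.71 (High).

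Stx1a (chr12:24682041-24710019, minus strand, ENSRNOG00000029165), a SNARE of the plasma membrane, was measured at 177, 228 and 282 in Control, 205, 275 and 323 in Low and 80.4, 240 and 285 in High. High 67 (80.4) and High 66 (131) lay below every Control and Low library, and the coefficient of variation within High, 33.7%, was the largest of the 8 genes and 3 groups on the scale of scaled coverage. The log2 difference was 0.22 for Low against Control (SE 0.192, adjusted p = 0.564) and 0.40 for Low against High (SE 0.192, 95% confidence interval 0.0047 to 0.80, adjusted p = 0.167). High against Control gave -0.18 (adjusted p = 0.999), 0.01 without High 67 and -0.089 without High 66.

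Snap25 (chr3:129599353-129788400, plus strand, ENSRNOG00000006037), the other plasma membrane SNARE, was measured at 102, 144 and 184 in Control, 100.2, 159 and 210 in Low and 77.03, 137 and 171 in High. The groups overlapped over most of their ranges. The log2 difference was 0.15 for Low against Control (SE 0.160, adjusted p = 0.642), -0.12 for High against Control (adjusted p = 0.999) and 0.27 for Low against High (adjusted p = 0.261). Single rats moved these estimates of Snap25. For Low against Control the estimate was 0.087 without Control 56, 0.092 without Low 57, 0.099 without Control 55 and 0.24 without Low 61. For High against Control it was -0.016 without High 67, -0.063 without High 66, -0.065 without Control 53, -0.077 without Control 50 and -0.19 without Control 56.

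Snap25 is also the gene for which the deposited columns disagree most. FPKM, fragments per kilobase scaled to sequencing depth, is proportional to coverage for a gene counted the same way in both columns, and relative to the median gene of the library the ratio was 1 for Syn1, Vamp2, Stx1a and Sv2a. For Snap25 it was 10.8 to 15.7 in Control, 10.7 to 14.1 in High and 16.18 to 16.22 in Low. Its share of FPKM was therefore much larger than its share of coverage: FPKM divided by its sum and multiplied by 1000000 was 1780 ± 395 in Control, 2383 ± 454 in Low and 1622 ± 560 in High (SD, n = 8). On that scale the Low-to-High difference of Snap25 was 0.61 (SE 0.193, adjusted p = 0.0287) and that of Syt1 0.41 (adjusted p = 0.00812), while Low against Control gave 0.43 for Snap25 (adjusted p = 0.187). For both genes the ratio of FPKM to coverage was higher in Low than in High, and by coverage their Low-to-High differences were 0.27 and 0.32. Of all genes, 2631 of 15699 passed for Low against High on that FPKM scale. Loci assembled on the same strand at Snap25 had a summed coverage of 3.75 to 20.9 times that of the reference gene in Control and 3.81 to 18.8 times in High, whereas for the other 7 genes it was at most 1.02 times. Coverage thus gives a low level of Snap25, and which column holds the level of its transcripts was not tested.

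**Figure D2:**
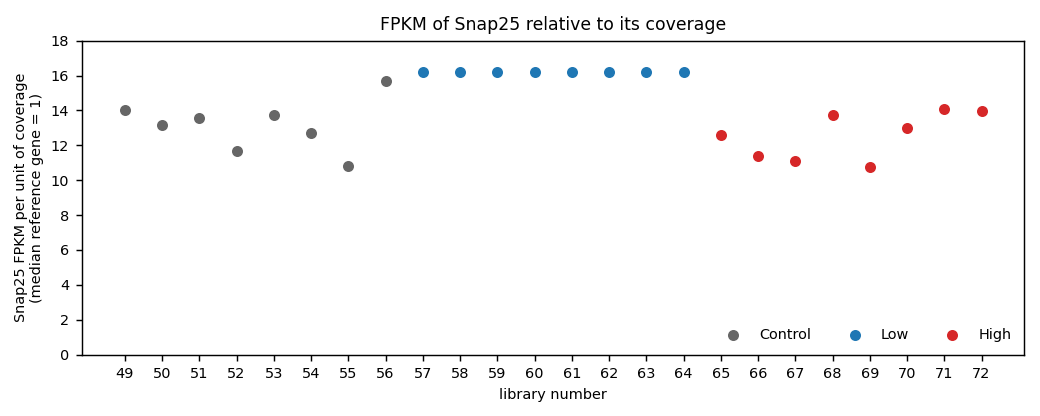
FPKM of Snap25 per unit of coverage in each library (linear axis from 0), relative to the median reference gene, which is at 1. The 8 Low points lie together at 16.2, while Control runs from 10.8 to 15.7 and High from 10.7 to 14.1.

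Sv2a (chr2:198321142-198336913, plus strand, ENSRNOG00000021182), the vesicle glycoprotein, was measured at 185, 239 and 245 in Control, 198, 247 and 279 in Low and 192, 222 and 266 in High. Only 4 of 8 Low libraries were above the Control median, and 7 of 8 High libraries were below it. The log2 difference was 0.13 for Low against Control (SE 0.0763, adjusted p = 0.380), -0.02 for High against Control (adjusted p = 0.999) and 0.15 for Low against High (adjusted p = 0.189). With 1 rat left out the High-to-Control estimate of Sv2a ran from -0.061 to 0.0065. The 95% confidence interval of High against Control, -0.18 to 0.14, is among the narrowest of the 8 genes, beside that of Vamp2 (-0.15 to 0.12). Its paralog Sv2c was lower, with a median Sv2a-to-Sv2c ratio of 32.3 (Control), 35.2 (Low) and 29.3 (High). Sv2b was not found by name.

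Slc17a7 (chr1:101161252-101173174, plus strand, ENSRNOG00000020650), the vesicular glutamate transporter, was the one gene with a lower point estimate in Low than in Control. It was measured at 647, 718 and 905 in Control, 489, 608 and 855 in Low and 302, 786 and 843 in High (lowest, median, highest). In Low 6 of 8 libraries were below the Control median, and Low 63 and Low 64 were above it. The log2 difference was -0.26 for Low against Control (SE 0.170, 95% confidence interval -0.61 to 0.09, adjusted p = 0.434), -0.20 for High against Control (adjusted p = 0.999) and -0.06 for Low against High (adjusted p = 0.840). High 67 (302) lay far below the next lowest High library (503), and without it the estimate of Slc17a7 was -0.043 for High against Control and -0.22 for Low against High, where leaving out other single rats gave -0.12 to -0.0043. With the 7 libraries Control 56 and Low 57 to Low 62 left out, only 2 Low rats remained and the Low-to-Control estimate was 0.10 (SE 0.287, adjusted p = 0.930). With them as a covariate it was -0.03 (adjusted p = 0.979). The sign of Slc17a7 also turned for the FPKM column as deposited (0.28), in which the median of all genes was 0.53. The other 7 genes had estimates above 0 for Low against Control in both fits that deal with the 7 libraries.

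Ratios within a library do not depend on how it is scaled. The Slc17a7-to-Syn1 ratio was 1.71 to 1.87 in Control (median 1.81), 1.32 to 1.88 in High (median 1.71) and 1.09 to 1.66 in Low. Within Low it was 1.09 to 1.32 in libraries 57 to 62 and 1.65 and 1.66 in libraries 63 and 64, so the highest of the first 6 lay well below the other 2. All 8 Low values were below the lowest Control value. High overlapped Low through High 66 (1.54) and High 67 (1.32), which lay below every Control value. It overlapped Control through other libraries, such as High 69 (1.81). Against Syt1 the ratio was 0.733 to 0.874 in Low 57 to Low 62, and 1.17 in both Low 63 and Low 64. Control spanned 1.03 to 1.45 and High 0.761 to 1.35, with High 67 at 0.761 and High 66 at 0.985. Against Vamp2 it was 0.548 to 0.648 in Low 57 to Low 62, 0.900 and 0.909 in Low 63 and Low 64, and 0.776 to 0.986 in Control. High spanned 0.413 to 0.998 there, so the ratios to Syt1 and Vamp2 overlapped between all groups. Control 56, which shares the mitochondrial tRNA signal with those 6 Low libraries, had the lowest Slc17a7-to-Syn1 ratio of the Control group (1.71) but lay above all 8 Low values. The ratio to Syn1 and the split of the Low group were noticed in these data, so no test is given, and what sets its 2 sets of libraries apart is not given by the labels. The paralog Slc17a6, which encodes VGLUT2, was rare in all groups, with a median Slc17a7-to-Slc17a6 ratio of 82.1 (Control), 67.9 (Low) and 100.4 (High).

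**Figure D3:**
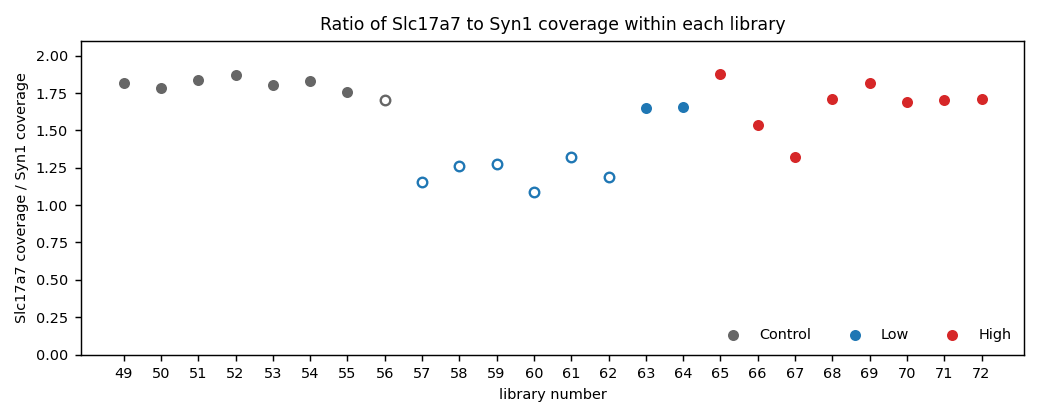
Ratio of Slc17a7 to Syn1 coverage in each library (linear axis from 0), by library number, with open points for Control 56 and Low 57 to Low 62. Low 57 to Low 62 lie at 1.09 to 1.32, Low 63 and Low 64 at 1.65 and 1.66, Control at 1.71 to 1.87 and High at 1.32 to 1.88.

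**Figure D4:**
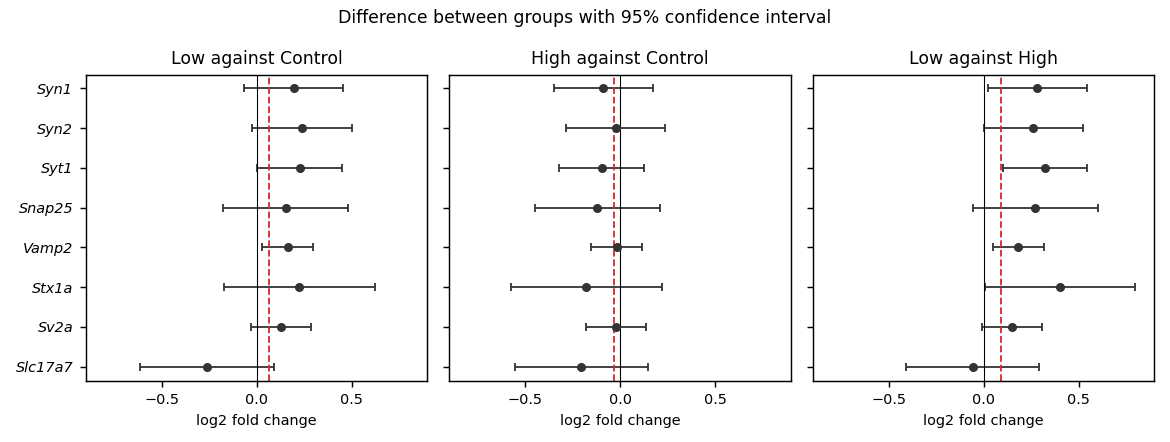
Log2 fold change of each gene (points) with its 95% confidence interval (bars) in the 3 comparisons, from limma on log2(scaled coverage + 1), n = 8 per group; the dashed line is the median of all genes tested. Most Low points lie right of that line (medians of the 8 genes 0.18 and 0.27), and Slc17a7 lies left of it. The High-to-Control points lie between -0.20 and -0.02. With unscaled coverage 7 of those 8 were above 0, where 11.9% of all genes were below 0. Without High 67, 5 of those 8 were above 0, where 35.6% of all genes were.

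Since coverage is per base, levels can be set beside each other between genes. In Control the mean scaled coverage fell in the order Vamp2 (861 ± 80.1), Slc17a7 (768 ± 111), Syt1 (614 ± 92.3), Syn1 (426 ± 56.0), Stx1a (232 ± 34.2), Sv2a (224 ± 23.2), Syn2 (167 ± 34.3) and Snap25 (143 ± 28.2; SD, n = 8). In all 8 Control libraries Vamp2 was above Slc17a7, Slc17a7 above Syt1, Syt1 above Syn1, Syn1 above Stx1a and Sv2a above Syn2. Stx1a exceeded Sv2a in 6 of 8 and Syn2 exceeded Snap25 in 5 of 8, so those neighbours did not separate beyond their spread. In Low, Syt1 (716 ± 84.4) came before Slc17a7 (646 ± 128) in 6 of 8 libraries. In High, Sv2a (221 ± 23.3) had a slightly higher mean than Stx1a (218 ± 73.6) and was above it in 3 of 8 libraries. By FPKM the order was the same but for Snap25, which came first in all 3 groups, and the place of Snap25 thus rests on the column used. Vamp2 exceeded Slc17a7 in 3 of 8 Control libraries by FPKM, so the first places by coverage did not hold there in each library.

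A few libraries stood at the ends of the range for most of the 8 genes. High 67 had the lowest of the 24 values for 6 genes (Syn1, Syt1, Snap25, Vamp2, Stx1a and Slc17a7) and the second lowest for Syn2 and Sv2a, for which Control 49 was lowest. Averaged over the 8 genes after z-scoring each over the 24 libraries, the value was -2.58 for High 67, -1.10 for Control 49, -1.04 for High 66 and -0.84 for Low 61. At the other end Low 59 (1.23) had the highest value of the 24 for 5 genes. Some marker sums of the same libraries also lay at the ends: in High 67 the 6 cortical excitatory markers summed to 1012, the lowest of 24, and those of High 66 to 1600, the second lowest, while the other libraries reached 3871. The 6 striatal markers were highest in High 65 (1160), where the mean z-score of the 8 genes was -0.45, then in High 67 (826), Control 55 (732) and High 66 (703), among group medians of 488 (Control), 361 (Low) and 361 (High). Choroid plexus markers summed to 30.2 in High 67 and 72.2 in Control 49, where the group medians were 7.52 to 11.97. In Control 49 the markers of astrocytes (775), microglia (86.8) and endothelium (71.5) each had their lowest sum of the 24. Inhibitory neuron markers in High 67 (809) lay inside the Control range of 610.2 to 847. Without High 67 the Low-to-High estimates were 0.17 for Syn1, 0.21 for Stx1a, 0.25 for Syt1 and 0.17 for Snap25, and 0 of 8 passed. The part of tissue make-up in the values of the 8 genes was not tested.

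The 8 genes were positively correlated with each other over the 24 rats, given as a description of libraries whose values share tissue make-up and scaling. Pearson's r of log2 values over the 28 pairs ran from 0.25 to 0.93 (median 0.68, n = 24), and from 0.03 to 0.88 (median 0.56, n = 23) without High 67. Pairs with Slc17a7 had a median r of 0.53, and 0.25 without High 67. Among the genes whose pattern was most like the mean of the 8 were Tmem132a (r = 0.9751), Dnm1 (0.9748), the dynamin of vesicle endocytosis, Pcsk2 (0.972), a prohormone convertase, and Mal2 (0.969), over 24 rats. Taken one by one, the closest gene was Pcsk2 for Syn1 (0.9751), Ptprn2 for Syn2 (0.957), the neuronal splicing factor Rbfox3 for Snap25 (0.965), Sgta for Vamp2 (0.927), Olfm1 for Stx1a (0.980), Gdap1 for Sv2a (0.944) and the potassium channel Kcnk4 for Slc17a7 (0.860). Without High 67, r of Tmem132a to the mean of the 8 was 0.972, and the closest gene became Tmem132a for Syn1 (0.972), Tnpo2 for Syn2 (0.958), Immt for Sv2a (0.938) and Mir128-1 for Slc17a7 (0.829). Without Control 49 it changed for Syn1, Snap25, Stx1a and Slc17a7, so that of the genes named here Sgta for Vamp2 held in both.

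Beyond the 8, a list of 86 presynaptic genes was described, of which 84 were tested (Sv2b and Snap23 were not found by name). For Low against Control 1 of 84 passed, Unc13b, which was lower by coverage and higher by FPKM. Of the 84, 70 had estimates above 0, with a median of 0.12 over the list against 0.06 over all genes. Without Control 49, 52 of the 84 were above 0, with a median of 0.063, against 55.1% of all genes and a median of 0.019. Between High and Control 0 of 84 passed in limma (2 at an unadjusted p under 0.05, and 0 with the exact Wilcoxon test), 69 had estimates below 0 and the median was -0.06 against -0.03. With unscaled coverage 70 were above 0, where 11.9% of all genes were below 0. Without High 67, 54 of the 84 were below 0, as were 64.4% of all genes. Between Low and High 6 of 84 rose (Nsf, Stxbp5, Snap91, Syt4, Atp6ap1 and Atp6v1a) and 0 fell, 74 had estimates above 0 and the median was 0.19 against 0.09. With unscaled coverage 48 of the 84 were below 0, and 77.9% of all genes. The shares past the threshold, 1 of 84 (1.19%) and 6 of 84 (7.14%), are below the 6.11% and 11.7% of all genes. For Low against High the share turns with the setting: it was 23.8% against 15.8% of all genes without Low 61, 22.6% against 16.8% with mitochondrial genes left out of the sum and 39.3% against 28.8% without both Control 49 and Low 57. It was 15.5% against 17.1% without Control 49 and 2.38% against 8.89% without High 67.

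Unc13b, a Munc13 priming factor, was measured at 5.71 ± 1.01 in Control, 3.65 ± 0.858 in Low and 4.85 ± 1.115 in High (SD, n = 8), a Low-to-Control log2 difference of -0.53 (SE 0.135, adjusted p = 0.0164). By FPKM divided by its sum the direction was the opposite, 1.06 (adjusted p = 0.00147), with 7.32 ± 2.56 in Control and 16.0 ± 3.74 in Low, so the direction of Unc13b rests on the column used. With Control 56 and Low 57 to Low 62 as a covariate it was -0.44 (adjusted p = 0.347), and it missed the threshold with the exact Wilcoxon test (adjusted p = 0.0640).

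Among the 6 genes that rose in Low against High, Nsf, the ATPase that takes SNARE complexes apart after fusion, was measured at 505 ± 54.5 in Low, 409 ± 41.3 in High and 441 ± 49.6 in Control, a difference of 0.30 (SE 0.0786, adjusted p = 0.0128). Stxbp5, tomosyn, which binds syntaxin in place of the vesicle SNARE, differed by 0.34 (SE 0.105, adjusted p = 0.0338). Snap91, a clathrin assembly protein of vesicle endocytosis, differed by 0.33 (SE 0.107, adjusted p = 0.0439), and Syt4, another synaptotagmin, by 0.34 (SE 0.110, adjusted p = 0.0452). Atp6ap1 (0.18, adjusted p = 0.0498, but -0.033 with unscaled coverage) and Atp6v1a (0.29, adjusted p = 0.04997) belong to the proton pump that acidifies the vesicle. Nsf passed in all 24 fits with 1 rat left out, and both pump genes in 4, those without Control 49, Control 51, Low 61 or High 70. Stxbp5 passed in 16 and missed the threshold in 8, those without Low 58, Low 59, Low 60, Low 62, High 65, High 66, High 67 or High 72. Snap91 missed it in 13, those 8 and the fits without Control 50, Control 55, Low 63, Low 64 or High 71. Syt4 passed in 8, those without Control 49, Control 51, Control 52, Control 53, Low 61, High 68, High 70 or High 72. With Control 56 and Low 57 to Low 62 left out or taken as a covariate none of the 6 passed (Nsf 0.21, adjusted p = 0.522, and 0.26, adjusted p = 0.312).

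By role, all 11 tested scaffold genes of the active zone had estimates above 0 for Low against Control (median 0.09), below 0 for High against Control (median -0.12) and above 0 for Low against High (median 0.28), with 0 past the threshold, but for High against Control 6 of 11 were above 0 with unscaled coverage, and for Low against Control 8 of 11 with median-of-ratios scaling and 6 of 11 without Control 49. Of all genes, 66.5%, 36% and 69.9% were above 0 in these 3 comparisons in the main fit, in the same order, with medians of 0.06, -0.03 and 0.09. These shares move with the setting. With unscaled coverage 11.9% of all genes were below 0 for High against Control and 77.9% for Low against High. For Low against Control 48.2% were below 0 with median-of-ratios scaling, and 55.1% above 0 without Control 49. Without High 67, 35.6% were above 0 for High against Control. For Low against High 11.7% of all genes passed. All 11 proton pump genes were above 0 for Low against Control (median 0.16), below 0 for High against Control (median -0.03) and above 0 for Low against High (median 0.18), where 2 passed. With unscaled coverage all 11 were above 0 for High against Control and 9 below 0 for Low against High, and without High 67 6 of the 11 were above 0 for High against Control. Of the 14 endocytosis genes 11 were above 0 for Low against Control (median 0.12), and of the 23 SNARE proteins and fusion regulators 20 (median 0.12), but without Control 49 these were 7 of 14 and 16 of 23. Of the 5 vesicular transporters 4 were below 0 for Low against Control (median -0.26) and for Low against High (median -0.32). With coverage scaled over all identifiers, 5 and 4 of the transporters were above 0, where only 6.13% and 6.52% of all genes were below 0. Those with the lowest estimates for Low against Control were Slc17a8 (VGLUT3, -0.32, adjusted p = 0.460) and Slc18a3, the vesicular acetylcholine transporter (-0.31, adjusted p = 0.691), both rare at 1.25 ± 0.740 and 2.60 ± 2.19 in Control. The other estimates farthest from 0 did not pass either. For Low against Control these were Doc2a (0.38, adjusted p = 0.0807), a calcium-binding protein of vesicle release, Syt4 (0.31, adjusted p = 0.105) and Napb (0.29, adjusted p = 0.550). For High against Control they were Stxbp5l (-0.61), Cplx3 (-0.37), a complexin, and Rab3c (-0.35), a vesicle GTPase, on one side and Slc32a1 (0.18), the transporter of GABA, Slc18a3 (0.17) and Doc2a (0.14) on the other (adjusted p = 0.999 each). For Low against High they were Stxbp5l (0.82, adjusted p = 0.0843), Rab3c (0.57, adjusted p = 0.314) and Bsn (0.48, adjusted p = 0.0864), the scaffold Bassoon, with Slc18a3 (-0.48, adjusted p = 0.402), Doc2b (-0.37, adjusted p = 0.323) and Unc13b (-0.33, adjusted p = 0.111) below 0.

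**Figure D5:**
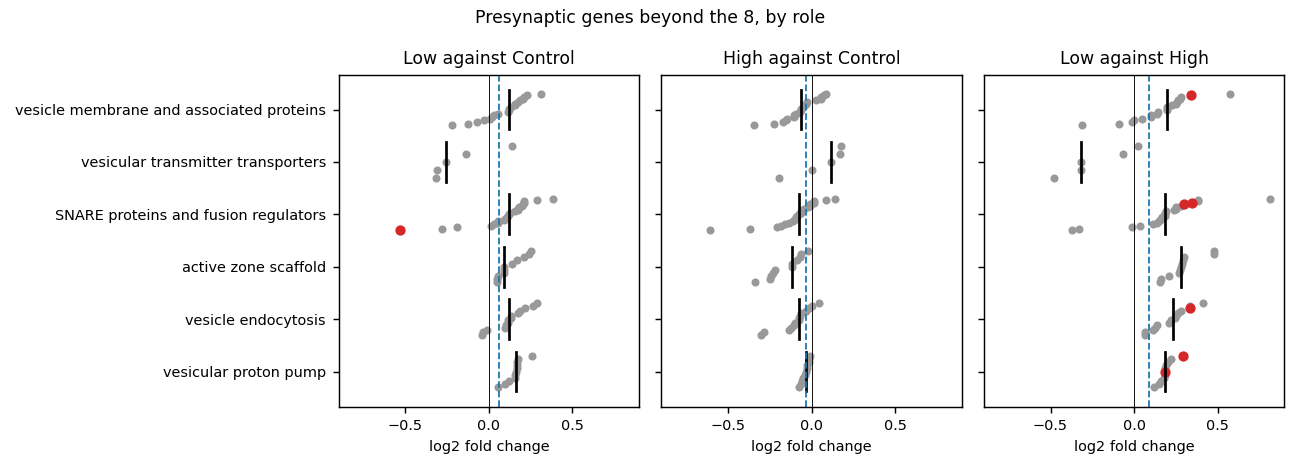
Log2 fold change of the 84 other presynaptic genes by role (1 point per gene, red where the adjusted p is under 0.05, black bars the median of each role), with a dashed line at the median of all genes tested. Points lie mostly right of 0 for Low against Control (70 of 84) and Low against High (74 of 84), and mostly left for High against Control (69 of 84). With unscaled coverage 65, 36 and 14 of 84 lay on those sides, where 40.5%, 77.9% and 11.9% of all genes were below 0. The first count was 52 without Control 49, where 55.1% of all genes were above 0. The last was 54 without High 67, where 64.4% of all genes were below 0. In each comparison 4 of the 5 vesicular transporters lie on the other side of 0.

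Last, the tables of Control and High rats list loci assembled from the reads, which give a second view of the 8 genes. All 8 were overlapped by same-strand loci in 8 of 8 Control and 8 of 8 High tables. On the opposite strand Control 56 stood apart: 172 loci overlapped Syt1, against 0 to 1 in the other Control and High libraries. The same count was 41 for Syn2 (3 to 9 in the others), 26 for Snap25 (0 to 3), 18 for Syn1 (2 to 4), 14 for Stx1a (0), 7 for Slc17a7 (0 to 1), 4 for Sv2a (1) and 2 for Vamp2 (0). Over the whole genome Control 56 also held more assembled loci, 159573, against 46334 to 66427 in the other Control libraries and 50235 to 64010 in High. The excess of loci in Control 56 was thus not confined to these genes. In that library the mean coverage of these opposite-strand loci was 5.57 reads per base at Syt1, where the reference gene itself had 1114, and 27.8 at Syn1, where it had 772. Control 56 is the Control library that shares the mitochondrial tRNA signal of Low 57 to Low 62, for which such loci were not listed, and its scaled coverage of the 8 genes lay within the range of the other Control libraries but for Snap25, where it was the lowest Control value (102).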

How the data were processed

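Stranded libraries of polyadenylated frontal cortex RNA were sequenced for 24 rats, grouped by the concentration in the labels (8 rats a group). The submitters' processing notes name FastQC, Trimmomatic, TopHat2 and StringTie with build mRatBN7.2; no source used here gives versions or options. The authors deposited 1 StringTie gene table per rat, with coverage as a signal of mean read depth per base and, in other columns, FPKM and TPM. The deposited TPM of Control and High tables sums to over 1000000 and was treated as a score. The last gene of chromosome 1 ends at 282724300 in the tables and at 270492571 in GRCr8, and 7680 names start with AABR07, so the build of the tables' coordinates is not settled; positions of genes are those of the tables and upstream sequences those of GRCr8. Whether counting used strand is not given, so reads of nested opposite-strand genes may be shared.

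Coverage was divided by its sum over 32883 reference genes and multiplied by 1000000. The 15644 genes whose mean reached 1 entered 1 fit of the 3 groups on log2(value + 1) by limma 3.58.1 under R 4.3.3, with its trend and robust options and two-sided p-values, and a Benjamini-Hochberg adjusted p under 0.05 over all genes as the threshold. Fold changes are on that scale and understate the change of low genes. Nothing states that the rats were housed or exposed separately, so p-values measure the spread between these samples. Limma and the exact Wilcoxon rank-sum test were tested on simulated data. Tables were made with pandas 2.3.3, numpy 2.4.6 and scipy 1.17.1 and plots with matplotlib 3.10.9, under Python 3.11.15.

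The 8 genes, the lists and the tests were chosen with earlier results of these data known. Named beside the 8 are their paralogs, list genes past the threshold, the 3 largest estimates each way per comparison, and the genes with the highest Pearson r to the 8; values of some genes these rules name are not reported here, while counts and medians over the list include them. Alternatives were a pseudocount of 0.1, no filter or a minimum mean of 5, unscaled coverage, median-of-ratios scaling, sums without mitochondrial genes or over all identifiers, the FPKM and TPM columns, only the groups compared, exact Wilcoxon tests, libraries 56 to 62 as a covariate, each rat left out, and Control 49 with Low 57 left out. FPKM divided by its sum, and libraries 56 to 62 left out, were added after seeing the data.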

Additional observations from a re-analysis of the deposited data

Results flagged for a closer look

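Of 141 sets of 8 values examined (genes and library measures, by group), 15 held a sample whose gap to its neighbour was large for the range of its group, where chance gives about 1 in 20 (7.05).

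Among the 8 genes the 1 such value was Syn1 in Low 61, with a scaled coverage of 370 where the other Low libraries had 471 to 539.

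Control 49 was far below the other Control libraries for several paralogs and list genes: Syn3 (4.46 against 10.2 to 13.6), Stxbp5l (2.66 against 14.6 to 18.9), Rab3c (6.16 against 27.6 to 45.7) and Bsn (38.5 against 69.1 to 94.2). In the same library the choroid plexus markers summed to 72.2, against 4.67 to 28.9 in the other Control libraries. The choroid plexus sum of High 67 was also apart, at 30.2 against 4.53 to 14.5.

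Slc17a6 was high in Control 50 (19.5 against 7.69 to 12.2), Slc18a3 in Low 60 (3.39 against 1.19 to 1.61), and Atp6ap1 was low in Control 51 (210.3 against 241 to 266). The blood markers of Control 56 summed to 350.1, against 151 to 240.1.

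Of the library measures, the sum of coverage over reference genes, in units of 1000000, was 2.82 in Control 51 (others 1.67 to 2.03) and 3.07 in Low 60 (others 1.64 to 2.05). The mitochondrial share was 22.5% in High 70 (others 25.4% to 27.8%), and the scaled coverage of minus-strand mitochondrial tRNA genes was 6991 in Control 56 (others 84.9 to 117).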

How the results depend on the processing

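No paired analysis was possible because the groups share no replicate numbers. Each Low table lacks assembled loci, so columns whose total includes them shift Low as a whole: the median log2 difference of all genes was 0.53 for Low against Control with the FPKM column, 0.17 with TPM and 0.80 with sums over all identifiers (0.52, 0.15 and 0.78 for Low against High), and 0.14 for High against Control and -0.11 for Low against High without scaling. Calls under these settings are to be read against those shifts. Leaving out Control 56 and Low 57 to Low 62 keeps only 2 Low rats. The tables hold no counts, so depth sets no limit that could be computed.

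The counts of the 8 genes are given with the number of all tested genes that passed in brackets. For Low against Control 7 passed with FPKM (12393 of 13816), 3 with TPM (3952 of 15587) and 8 with all identifiers (14392 of 15644). Without mitochondrial genes 1 (Vamp2) passed (1688 of 15644). Between Low and High 8 passed with FPKM (12410 of 13816), 4 with TPM (3927 of 15587) and 8 with all identifiers (14415 of 15644). There 2 (Syt1, Vamp2) passed without mitochondrial genes (2621 of 15644), and 1 (Syt1, adjusted p = 0.0493) with only the groups compared (2029 of 15644). Without both Control 49 and Low 57 2 (Syn2, Syt1) passed (4507 of 15644), and with FPKM divided by its sum 2 (Syt1, Snap25; 2631 of 15699). With 1 rat left out 0 to 2 passed (1272 to 2677 of 15644). Between High and Control 0 passed under any alternative.

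The reference genes past the threshold for Low against Control numbered 956, and 556 with a minimum mean of 5, 628 without scaling, 1688 without mitochondrial genes, 12393 with FPKM, 3952 with TPM, 14392 with all identifiers, 566 with only the groups compared, 372 with Wilcoxon tests, 361 with libraries 56 to 62 as a covariate, 327 without them and 1847 with FPKM divided by its sum (675 to 1229 with 1 rat left out). Between Low and High they numbered 1828, and 1192, 1133 (minimum mean of 5, no scaling), 12410, 3927, 14415 (FPKM, TPM, all identifiers), 1147 with Wilcoxon tests, 354 and 341 (libraries 56 to 62 as a covariate, left out) and 4507 without Control 49 and Low 57 (1272 to 2677 with 1 rat left out). Between High and Control they numbered 0, with 330 at an unadjusted p under 0.05 in limma, 0 adjusted with Wilcoxon tests and 390 without Control 49 and Low 57 (0 to 0 with 1 rat left out).

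The counts of the presynaptic list are to be read beside those of all genes, given above for most settings. Of the list, for Low against Control 1 gene passed, and 0 with a minimum mean of 5, Wilcoxon tests, or libraries 56 to 62 as a covariate or left out, 9 without mitochondrial genes, 74 with FPKM, 20 with TPM, 77 with all identifiers, 7 with FPKM divided by its sum and 1 to 4 with 1 rat left out (4 without Low 61, 2 without High 67). Of all 15644 genes 962 passed without Low 61 and 936 without High 67. Between Low and High 6 passed, and 2 with no filter, 0 without scaling and with libraries 56 to 62 as a covariate or left out, 19 without mitochondrial genes, 75, 26 and 79 with FPKM, TPM and all identifiers, 10 with FPKM divided by its sum, 33 without Control 49 and Low 57 and 1 to 20 with 1 rat left out (20 without Low 61, 13 without Control 49, 8 without High 70). In the same comparison 2061 of all 26257 genes passed with no filter, 2621 of 15644 without mitochondrial genes and 2631 of 15699 with FPKM divided by its sum. Without Low 61, Control 49 or High 70 the numbers were 2479, 2677 and 2053 of 15644. Between High and Control 5 of the list passed without Control 49 and Low 57, where 390 of all 15644 genes did.

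Directions turned as follows, with causes not tested. For Low against Control: Slc17a7 to 0.28 with FPKM, 0.56 with all identifiers and 0.10 without libraries 56 to 62; Unc13b to 1.39, 1.17, 0.12 and 1.06 (FPKM, TPM, all identifiers, FPKM divided by its sum); Slc17a8 to 0.060 and Slc18a3 to 0.18 with all identifiers, and Napb to -0.090 with FPKM divided by its sum. For High against Control without scaling: Syn1 0.094, Syn2 0.16, Syt1 0.085, Snap25 0.062, Vamp2 0.17, Stx1a 0.0047 and Sv2a 0.16. Syn2, Vamp2 and Sv2a also turned to 0.014, 0.019 and 0.016 with median-of-ratios scaling, to 0.00089, 0.0060 and 0.0024 without mitochondrial genes and to 0.032, 0.038 and 0.034 with all identifiers, Vamp2 to 0.031 with FPKM and with TPM, and Sv2a to 0.027 with either. With 1 rat left out they ranged from -0.13 to 0.025 (Syn1), -0.13 to 0.040 (Syn2), -0.047 to 0.012 (Vamp2), -0.25 to 0.012 (Stx1a), -0.061 to 0.0065 (Sv2a) and -0.051 to 0.36 (Slc18a3); all but Slc18a3 were above 0 without High 67. For Low against High: Vamp2 -0.037, Sv2a -0.067 and Atp6ap1 -0.033 without scaling; Slc17a7 0.43, 0.017 and 0.70 (FPKM, TPM, all identifiers), 0.23 and 0.32 (libraries 56 to 62 as a covariate, left out); Doc2b 0.018 and 0.27 (FPKM, all identifiers); Unc13b 1.39, 1.19, 0.27 and 1.119 (as above).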
